A study of Mus musculus with 10 samples.

Results

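The genes described here are 10 genes of meiotic recombination, taken in the order in which their products act: *Spo11*, *Prdm9* and *Mei1* for the formation of DNA double-strand breaks, *Dmc1*, *Mnd1*, *Psmc3ip* and *Spata22* for strand exchange, and *Msh4*, *Msh5* and *Mlh3* for crossovers. A probe set, the group of short probes that reads 1 transcript on the array, was used where the platform annotation gave it only 1 of these symbols. By this rule 9 of the 10 genes had 12 of the 45037 probe sets on the array, and *Spata22*, whose product binds single-stranded DNA together with MEIOB, had none, so its expression was not analysed here. Embryonic stem cells (ESCs) multiply by mitosis and are not in meiosis. A question asked of the arrays was which germ cell and meiotic genes changed when ESCs lost MAX. MAX is the partner that MYC proteins need to bind DNA.

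All 10 arrays came from 1 kind of cell, male *Max*-null ESCs of strain 129SV. In these cells both endogenous *Max* alleles are disrupted and a *Max* cDNA in the *ROSA26* locus is expressed under a tetracycline-off system, so that doxycycline (Dox) switches it off. The treated and the untreated cells alike therefore lack endogenous *Max*, and untreated cells are the control that still has the cDNA. In medium with leukaemia inhibitory factor and serum (LIF+serum), 1 array each was made after 1, 2, 3, 4, 6 and 8 d of Dox and 2 arrays from untreated cells. Untreated array 1 was grouped with the arrays at 1 to 4 d (array set 1) and untreated array 2 with those at 6 and 8 d (array set 2). The titles of the arrays with Dox name no untreated partner, and this grouping matches the order of the sample records. Folds against the same set and the array set term below rest on it. In 2i+LIF, a medium with inhibitors of MEK and GSK3β, 1 array was made after 6 d of Dox and 1 from untreated cells. Neither the labels nor the methods say whether the cells were 1 clone or whether the arrays came from separate cultures. The error of a trend below is therefore the scatter of single arrays around a line, drawn towards that of all probe sets. This scatter may be technical.

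Meiotic recombination starts with breaks made by SPO11 at sites marked by PRDM9. The recombinase DMC1, helped by the heterodimer of MND1 and PSMC3IP, pairs the broken end with the homologous chromosome. A fraction of these joints is then held by the heterodimer of MSH4 and MSH5 and cut as crossovers by a nuclease that contains MLH3. Most of these genes are known for expression in spermatocytes and oocytes early in meiosis, whereas MLH3 also has a role in mismatch repair of somatic cells.

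Values were log2 RMA values, in which 1 unit is a 2-fold difference. The levels of the measured genes were not set against each other, but percentiles on an array and counts above the array median do rank probe sets by level. Array medians lay between 5.14 and 5.33, the correlation between any 2 arrays lay between 0.916 and 0.991, and no 2 arrays were identical. The *Max* probe set lay between 5.07 and 6.20 and was not lowest under Dox in every set. At 6 and 8 d of Dox it read 6.20 and 6.19, against 5.74 on untreated array 2. No source used here says whether that probe set reads the disrupted alleles, the cDNA or both, and it therefore checked no label. All 8 ESC markers were above the array median on all 10 arrays, with a mean between 11.52 and 12.23. The 7 fibroblast markers averaged 4.01 to 4.93 with 0 to 2 of them above the array median, and the 6 primitive endoderm markers averaged 5.13 to 5.70 with 1 to 4 above it. The 6 trophectoderm markers averaged 5.42 to 7.03 with 3 to 4 above it. They were highest, at 7.03, at 8 d of Dox in LIF+serum, against 5.65 on untreated array 2. The 3′ minus 5′ difference of the beta-actin control probe sets, a sign of RNA quality, was 1.46 and 1.22 at 6 and 8 d of Dox, against 0.88 on untreated array 2, and it was 0.41 to 0.56 in array set 1.

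MAX dimers bind the E-box, CACGTG, and MAX is also found in a Polycomb complex with E2F and T-box proteins. The letters of these motifs were looked for, on both strands, in the 300 bases around the annotated start sites (250 before, 50 after, RefSeq, GRCm38.p6). The table held 11 promoters for 9 of the 10 genes, *Spo11* not among them. The E-box CACGTG was in 0 of the 11, and in 7.15% of all 32851 promoters of that length. The T-box letters AGGTGTGA (reverse TCACACCT) were also in 0 of the 11, and in 1.28% of all. The E2F letters GCGGGAA (reverse TTCCCGC) were in 3 of the 11 and in 4.6% of all: 47 bases upstream of a *Prdm9* start, 65 upstream of *Msh5* and 4 upstream of *Spata22*. No match overlapped another. A match is a description of the window and not a site of binding. The *Mei1* promoter is shown because *Mei1* had the largest change of the 9 measured genes, and those of *Prdm9* and *Msh5* because they carry the E2F letters, which are in capitals. The table's *Mei1* start lies inside the annotated span of the gene. *Mei1* is at chr15:82082226-82082525 on the plus strand, *Prdm9* at chr17:15564305-15564604 on the minus strand and *Msh5* at chr17:35046573-35046872 on the minus strand, each printed 5′ to 3′ along the gene.
Mei1: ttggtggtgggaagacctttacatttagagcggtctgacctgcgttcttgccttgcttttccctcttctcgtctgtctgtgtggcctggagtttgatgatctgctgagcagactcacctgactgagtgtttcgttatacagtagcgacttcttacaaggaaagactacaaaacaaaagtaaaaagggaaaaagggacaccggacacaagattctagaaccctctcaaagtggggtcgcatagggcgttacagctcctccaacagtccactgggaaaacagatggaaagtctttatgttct
Prdm9: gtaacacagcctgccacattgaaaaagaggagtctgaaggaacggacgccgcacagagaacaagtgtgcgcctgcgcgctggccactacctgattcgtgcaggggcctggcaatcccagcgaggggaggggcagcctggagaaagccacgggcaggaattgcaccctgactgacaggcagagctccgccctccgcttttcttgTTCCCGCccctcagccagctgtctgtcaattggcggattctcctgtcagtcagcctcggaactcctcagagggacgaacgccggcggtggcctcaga
Msh5: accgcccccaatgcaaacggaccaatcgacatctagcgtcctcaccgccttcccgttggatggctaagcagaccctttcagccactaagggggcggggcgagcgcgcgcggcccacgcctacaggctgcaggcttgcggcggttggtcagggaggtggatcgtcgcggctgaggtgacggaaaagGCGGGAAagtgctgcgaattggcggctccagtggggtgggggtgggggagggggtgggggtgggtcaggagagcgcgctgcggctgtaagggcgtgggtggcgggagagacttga
The *Mei1* window had 46.7% G+C and 8 CpG, against 61.7% and 18 for *Prdm9* and 67.3% and 27 for *Msh5*. Over all promoters of that length the medians were 52.67% and 7 CpG.

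The break genes were the group in which changes passed the test. *Mei1* rose in LIF+serum and was also higher in 2i+LIF, *Spo11* rose by a smaller amount, and *Prdm9* had a positive slope that did not pass. *Mei1*, which mouse germ cells need to form breaks, read 4.53 without Dox, 4.83 at 1 d, 4.80 at 2 d, 5.95 at 3 d and 6.67 at 4 d in array set 1. Array set 2 gave 3.75 without Dox, 8.25 at 6 d and 8.36 at 8 d. All 6 arrays with Dox were above both untreated arrays, those at 1 and 2 d by little. On arrays of whole cultures, more cells with a transcript and more of it per cell cannot be told apart. Relative to the untreated array of each set, the folds were 1.23 and 1.21 at 1 and 2 d, 2.66 and 4.40 at 3 and 4 d, and 22.7 and 24.4 at 6 and 8 d. Untreated array 2 was 0.581 times untreated array 1, and against untreated array 1 the folds at 6 and 8 d were 13.2 and 14.2. The table has no detection calls, so whether the untreated values of *Mei1* were above background is not known, and if they were not, these folds are lower bounds.

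Across all probe sets, a straight line over days of Dox with a term for the array set (limma, Benjamini-Hochberg adjustment over 45037 probe sets) gave *Mei1* a daily slope of 0.60 log2 units (SE 0.056, 8 arrays, adjusted p = 0.00245). It ranked 64 from the top of all probe sets by slope. On its own array *Mei1* stood at percentiles 83.1 and 83.9 of all probe sets at 6 and 8 d of Dox, against 22.7 on untreated array 2 and 34.9 on untreated array 1. The slope was 0.62 (SE 0.058, adjusted p = 0.000757) within array set 2 and 0.54 (SE 0.088, adjusted p = 0.0195) within array set 1. Array set 2 alone leaves 1 residual degree of freedom, to which limma adds 8.98 prior degrees taken from all probe sets. For every gene, the SE and adjusted p within array set 2 therefore come mostly from other probe sets. With untreated array 2 left out the slope of *Mei1* was 0.46 and its adjusted p was 0.245, and 0 of the 45037 probe sets passed in either direction.

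*Spo11*, which encodes the enzyme that cuts the DNA, read 4.02 without Dox and 3.66, 4.15, 3.92 and 4.10 at 1, 2, 3 and 4 d. In array set 2 it read 3.11 without Dox, 4.04 at 6 d and 4.88 at 8 d. The first 4 days overlapped with untreated array 1, and only the array at 8 d was clearly above both untreated arrays. All of these levels were low for the arrays, between percentiles 11.8 and 43.1 of all probe sets. The folds against the same set were 0.778, 1.09, 0.934 and 1.06 at 1, 2, 3 and 4 d and 1.90 and 3.40 at 6 and 8 d. Untreated array 2 was the lowest of the 8 LIF+serum arrays for *Spo11*, 0.533 times untreated array 1, and against untreated array 1 the folds were 1.02 at 6 d and 1.81 at 8 d, so that the value at 6 d was higher only against untreated array 2. The slope over the 8 arrays was 0.17 (SE 0.039, adjusted p = 0.0274), with 0.21 (SE 0.041, adjusted p = 0.0184) within array set 2 and 0.04 (SE 0.065, adjusted p = 0.764) within array set 1. The call was lost without untreated array 2 (adjusted p = 0.580), without the array at 8 d (0.112), within array set 1, with no term for the array set (0.0606), with log2(day + 1) in place of days (0.0714) and with all 10 arrays (0.0882).

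*Prdm9*, which encodes the zinc finger methyltransferase that marks the sites of breaks, read 5.03 without Dox and 5.0, 4.52, 5.40 and 5.29 at 1, 2, 3 and 4 d. The arrays of set 2 read 5.02 without Dox, 5.72 at 6 d and 5.89 at 8 d. Untreated array 2 was 0.990 times untreated array 1, and the 4 arrays from 3 d onwards were above them. The folds reached 1.62 and 1.83 at 6 and 8 d, and the slope of 0.11 (SE 0.037, adjusted p = 0.112) did not pass. It passed without the array at 2 d, where *Prdm9* was lowest of the 8 arrays (adjusted p = 0.0454), and with no term for the array set (0.0478).

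**Figure D1:**
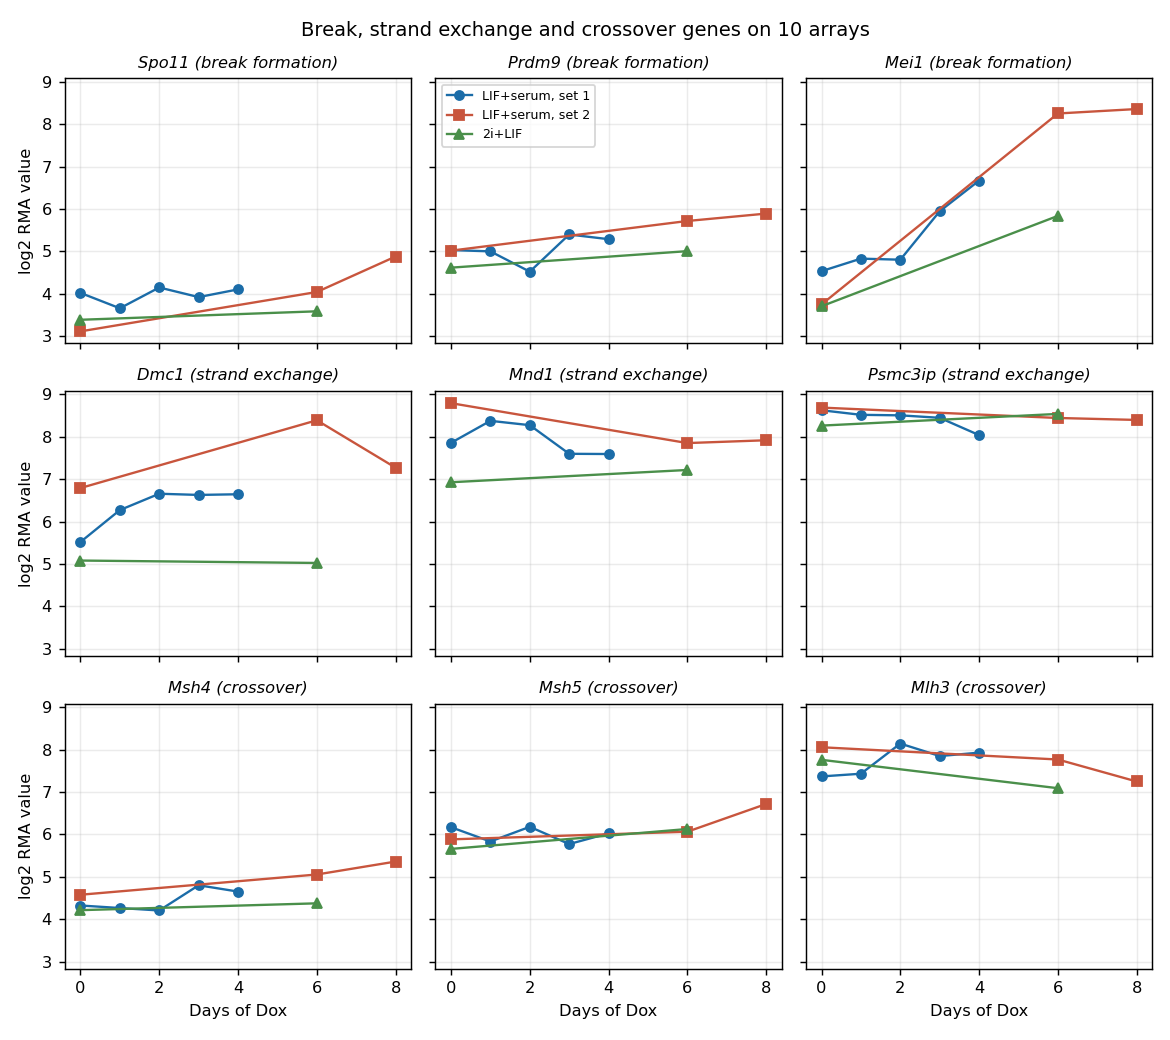
Log2 RMA value (y axis) against days of Dox (x axis) for the main probe set of each of the 9 measured genes, 1 point per array, with lines joining the arrays of 1 set: circles for LIF+serum set 1, squares for LIF+serum set 2 and triangles for 2i+LIF. *Mei1* goes furthest above its untreated arrays, reaching 8.25 and 8.36 at 6 and 8 d in LIF+serum and 5.84 at 6 d in 2i+LIF.

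None of the 3 measured strand exchange genes passed the test, and their values went different ways. *Dmc1*, the meiotic recombinase, read above its own untreated array on all 6 LIF+serum arrays with Dox, while *Mnd1* and *Psmc3ip*, whose products work as its partner pair, had negative slopes. *Dmc1* read 5.52 without Dox and 6.27, 6.66, 6.63 and 6.65 at 1, 2, 3 and 4 d. In array set 2 it read 6.79 without Dox, 8.39 at 6 d and 7.27 at 8 d. Untreated array 2 was thus above all of the arrays from 1 to 4 d, and 2.42 times untreated array 1. Against the same set the folds were 1.69, 2.20, 2.16 and 2.18 at 1, 2, 3 and 4 d and 3.03 and 1.39 at 6 and 8 d. Against the untreated array of the other set they were 0.698, 0.911, 0.893 and 0.903 at 1, 2, 3 and 4 d, and 7.32 and 3.37 at 6 and 8 d, so the direction at 1 to 4 d depended on which untreated array was used. The slope was 0.14 (SE 0.061, adjusted p = 0.191). Without the array at 8 d it was 0.26 and passed (adjusted p = 0.00769).

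The second *Dmc1* probe set was also above its own untreated array on every LIF+serum array with Dox. It read 5.70 without Dox and 6.26, 6.51, 6.51 and 7.07 at 1, 2, 3 and 4 d in array set 1, and 6.65 without Dox, 7.71 at 6 d and 7.14 at 8 d in array set 2. Against its own set its folds were 1.76, 1.75 and 2.59 at 2, 3 and 4 d. Against untreated array 2 they were 0.911, 0.907 and 1.34, so that at 4 d it was above both untreated arrays, unlike the main probe set. Its slope was 0.14 (SE 0.047, adjusted p = 0.105) over the 8 arrays. Within array set 1 its slope was 0.30 and passed (adjusted p = 0.0318), while that of the main probe set was 0.26 and did not (adjusted p = 0.0886).

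*Mnd1* read 7.86 without Dox and 8.38, 8.28, 7.60 and 7.60 at 1, 2, 3 and 4 d. The values of array set 2 were 8.80 without Dox, 7.85 at 6 d and 7.92 at 8 d. Untreated array 2 was the highest of the 8 arrays, at 1.91 times untreated array 1. The folds of 0.521 at 6 d and 0.545 at 8 d rest on that array, since against untreated array 1 they were 0.996 and 1.04. The slope of -0.12 (SE 0.039, adjusted p = 0.0814) did not pass over the 8 arrays and did without untreated array 1 (adjusted p = 0.0397).

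*Psmc3ip* had the smallest spread of the 9 genes on these arrays, with all values of its main probe set between 8.04 and 8.69. It read 8.63 without Dox and 8.52, 8.51, 8.45 and 8.04 at 1, 2, 3 and 4 d, and in array set 2 8.69 without Dox, 8.45 at 6 d and 8.40 at 8 d. On the main probe set, all 6 arrays with Dox were below both untreated arrays. Against their own set its folds lay between 0.666 at 4 d and 0.928 at 1 d. The other probe set was also below the untreated array of the same set on all 6. At 1 and 3 d, however, it was above untreated array 2, by folds of 1.08 and 1.07. The slope was -0.06 for both *Psmc3ip* probe sets, and neither passed (main one SE 0.028, adjusted p = 0.251, other SE 0.029, adjusted p = 0.241).

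None of the 3 crossover genes passed either. *Msh4* had a small positive slope, *Msh5* was above its untreated array mainly at 8 d, and *Mlh3* differed in direction between the array sets. *Msh4*, whose product stabilises joined DNA in a dimer with MSH5, read 4.32 without Dox and 4.26, 4.20, 4.80 and 4.65 at 1, 2, 3 and 4 d. In array set 2 it read 4.57 without Dox, 5.05 at 6 d and 5.36 at 8 d. As for *Prdm9*, the 4 arrays from 3 d onwards were above both untreated arrays. The folds were 1.39 and 1.26 at 3 and 4 d and 1.39 and 1.72 at 6 and 8 d, and the slope was 0.10 (SE 0.029, adjusted p = 0.0654). It passed with the mean of all probe sets of each gene in the fit (adjusted p = 0.0453) and with no term for the array set (0.0288), where the gap of 1.19-fold between untreated arrays 2 and 1 is left in the line.

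*Msh5*, the partner of *Msh4*, read 6.17 without Dox and 5.83, 6.18, 5.77 and 6.02 at 1, 2, 3 and 4 d. Array set 2 read 5.88 without Dox, 6.06 at 6 d and 6.72 at 8 d. Only the array at 8 d stood clearly above both untreated arrays, at 1.78-fold against its own set. The slope was 0.06 (SE 0.037, adjusted p = 0.370), and that of its second probe set was 0.04 (SE 0.025, adjusted p = 0.435).

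*Mlh3*, the crossover nuclease subunit, read 7.37 without Dox and 7.43, 8.14, 7.85 and 7.93 at 1, 2, 3 and 4 d. In array set 2 it read 8.05 without Dox, 7.77 at 6 d and 7.25 at 8 d. Array set 1 thus had its untreated array lowest and array set 2 had its untreated array highest. The folds were 0.819 and 0.571 at 6 and 8 d, and 1.05, 1.71, 1.40 and 1.48 at 1, 2, 3 and 4 d. Over the 8 arrays the slope was -0.03 (SE 0.047, adjusted p = 0.719). The slope of array set 2 minus that of array set 1 was -0.24 (SE 0.083), with an unadjusted p of 0.0158 and an adjusted p of 0.272.

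Set side by side, 2 of the 3 break genes rose, and 0 of 3 strand exchange and 0 of 3 crossover genes rose or fell. Of all probe sets 4.77% rose and 4.17% fell, and of all genes by their main probe set 5.75% rose and 5.33% fell. The 2 of 9 genes that rose, both of them break genes, are a small count read against those shares. At an unadjusted p under 0.05 there were 3 of 3 break, 2 of 3 strand exchange and 1 of 3 crossover genes, 6 of 9 in all. Under that value were 24.1% of all probe sets and 28.1% of all genes by their main probe set. Of the 6, *Spo11*, *Prdm9* and *Msh4* never reached 6 on the log2 scale. The median slope was 0.17 for break, -0.06 for strand exchange and 0.06 for crossover genes, beside -0.01 over the main probe sets of all 18193 genes. The median folds at 4, 6 and 8 d were 1.19, 1.90 and 3.40 for break genes, 0.833, 0.844 and 0.817 for strand exchange genes and 1.26, 1.13 and 1.72 for crossover genes. Over all genes they were 0.936, 0.954 and 0.974. With 3 genes a step, no test of one step against another was made.

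Counts past 2-fold were small at every time. The number of the 9 genes at least 2-fold above the untreated array of their set was 0 at 1 d, 1 at 2 d and 2 each at 3, 4, 6 and 8 d, where the shares of all probe sets were 3.08%, 4.23%, 5.41%, 6.92%, 5.77% and 5.49%. At least 2-fold lower were 0 of the 9 at each of these times, where the shares of all probe sets were 0.437%, 1.04%, 2.32%, 3.16%, 4.27% and 4.51%. By their main probe sets, the genes past 2-fold were *Dmc1* at 2, 3, 4 and 6 d, *Mei1* at 3, 4, 6 and 8 d and *Spo11* at 8 d. The second *Dmc1* probe set was past 2-fold only at 4 d (2.59) and 6 d (2.09). Between the untreated arrays themselves, 6.81% of all probe sets were at least 2-fold higher and 2.85% at least 2-fold lower on array 2 than on array 1, and *Dmc1* was the 1 gene of the 9 that was.

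**Figure D2:**
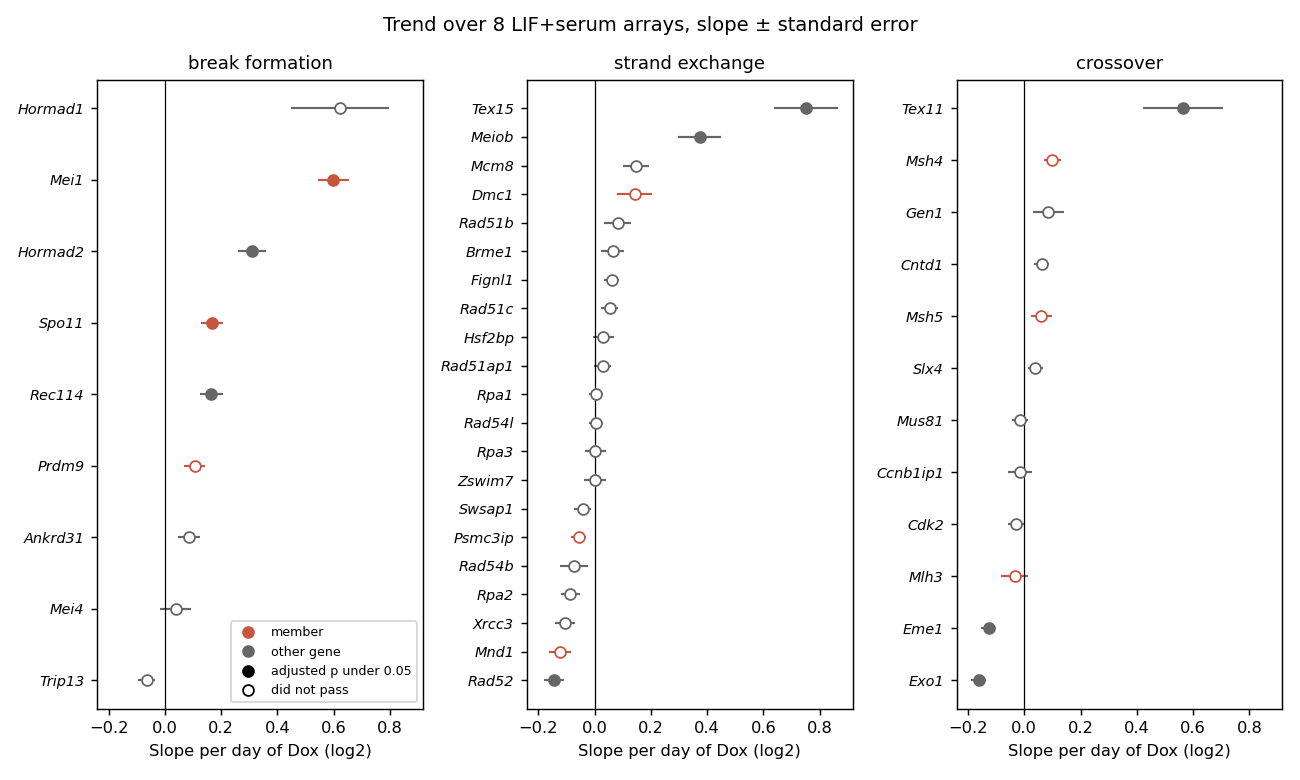
Slope per day of Dox on the log2 scale (x axis, bars are standard errors) over the 8 LIF+serum arrays for the 9 measured genes (orange) and 33 other genes of the same steps (grey), with filled points where the adjusted p was under 0.05. *Mei1* (0.60) and *Spo11* (0.17) are the filled orange points, both in the panel of break formation.

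The array sets differ in more than days of Dox, so the slopes were also set against each other. The slope over all LIF+serum arrays is a weighted average of the slopes within the sets. Set 2 has more weight, since its days spread further, so the slope over all arrays is not a separate measurement. For *Mei1* both sets gave a positive slope that passed, and the slope of set 2 minus that of set 1 was 0.08 (SE 0.13, adjusted p = 0.854). *Spo11* had a slope of 0.21 in set 2 and 0.04 in set 1, a difference of 0.16 (SE 0.080, adjusted p = 0.427). For *Dmc1* the slopes were 0.11 in set 2 and 0.26 in set 1, and the difference was -0.15 (adjusted p = 0.689). The difference between sets passed for 0 of the 9 genes by limma, and 1 of 9, *Mlh3*, had an unadjusted p under 0.05. Of all probe sets 0.00222% (1 probe set) passed and 13.1% had an unadjusted p under 0.05. This fit has 4 residual degrees of freedom, and array set 2 alone has 1, beside 5.70 and 8.98 prior degrees that limma takes from all probe sets. The highest values of *Mei1*, at 6 and 8 d, and of *Spo11*, at 8 d, came from array set 2. On the arrays at 6 and 8 d the beta-actin 3′ minus 5′ differences were 1.46 and 1.22, against 0.88 on untreated array 2. In array set 1 they were 0.52 to 0.56 at 1 to 4 d of Dox, against 0.41 on untreated array 1. The 6 trophectoderm markers averaged 6.29 and 7.03 at 6 and 8 d, against 5.65 on untreated array 2, and 4 of 6 were above the array median, against 3 of 6. Of these 6, *Krt7*, a keratin gene, read 4.96 without Dox and 4.42, 4.89, 5.36 and 6.58 at 1, 2, 3 and 4 d, and 5.10 without Dox, 8.31 at 6 d and 7.63 at 8 d in array set 2. *Cdx2* was at 4.90 and 4.91 at 6 and 8 d, against 4.99 on untreated array 2, and *Elf5* at 3.01 and 2.97, against 3.21. *Krt8*, *Krt18* and *Eomes* read 7.27, 7.78 and 6.46 at 6 d and 9.39, 9.69 and 7.61 at 8 d. On untreated array 2 they read 7.42, 7.05 and 6.12. The highest value of *Krt8* on any array was 10.43, on the untreated array in 2i+LIF. The part of RNA quality or of cells with any of these markers in the rise of *Mei1* and *Spo11* was not tested.

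**Figure D3:**
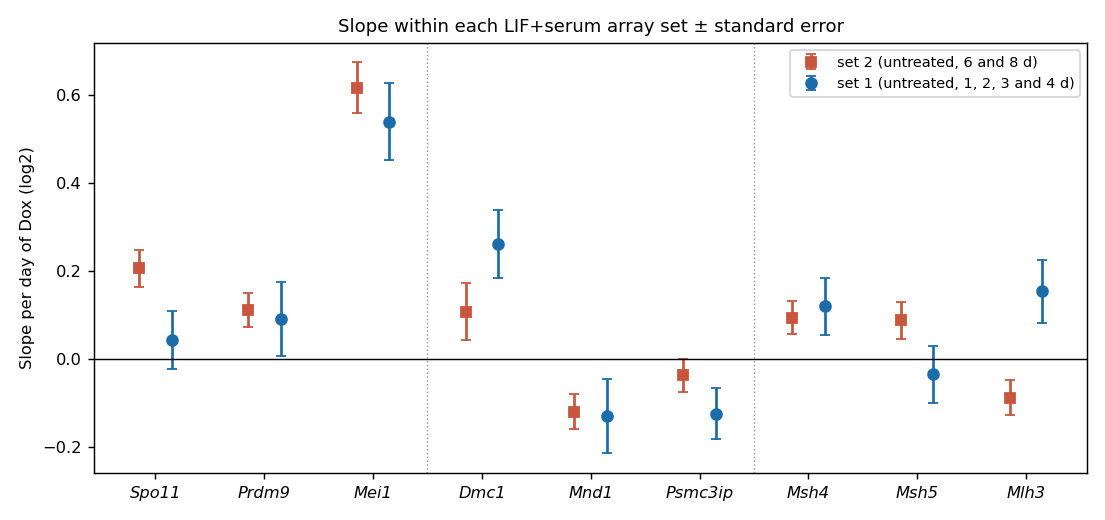
Slope per day of Dox on the log2 scale (y axis, bars are standard errors) for each of the 9 measured genes, fitted within LIF+serum array set 2 (squares, untreated, 6 and 8 d) and within array set 1 (circles, untreated and 1 to 4 d). *Mei1* has 0.62 and 0.54, while *Mlh3* has -0.09 in set 2 and 0.15 in set 1.

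In 2i+LIF, where 1 array with Dox for 6 d stood against 1 untreated array and no test can be made, *Mei1* was again the gene with the largest difference. It read 5.84 with Dox, against 3.71 without, a 4.38-fold difference that lay at percentile 99.9 of all probe sets. *Mei1* was the 1 gene of the 9 at least 2-fold higher, as were 1.22% of all probe sets, and 0 of 9 were at least 2-fold lower, as were 1.8%. *Spo11* read 3.59 with Dox and 3.39 without (1.15-fold), and *Prdm9* 5.0 with Dox and 4.62 without (1.31-fold). *Dmc1* read 5.03 with Dox and 5.08 without (0.961-fold), and its second probe set 4.65 and 4.55 (1.07-fold). *Mnd1* was at 7.22 with Dox and 6.93 without (1.22-fold), and *Psmc3ip* at 8.54 and 8.27 (1.21-fold). Of the crossover genes, *Msh4* read 4.37 with Dox and 4.21 without (1.12-fold), *Msh5* 6.13 and 5.66 (1.38-fold) and *Mlh3* 7.09 and 7.76 (0.629-fold).

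The media differed most for *Mei1* and *Dmc1*. The log2 difference at 6 d of Dox in 2i+LIF minus that in LIF+serum was -2.37 for *Mei1* and -1.66 for *Dmc1*, and 1.23 for *Mnd1*. For the other 6 genes it lay between -0.73 (*Spo11*) and 0.52 (*Psmc3ip*). With untreated array 1 under the LIF+serum array, an alternative added after the data were seen, it was -1.59 for *Mei1*, -2.93 for *Dmc1*, 0.29 for *Mnd1* and 0.18 for *Spo11*, so that the values of *Mnd1* and *Spo11* rest on untreated array 2. For *Mlh3* it was -1.07 in this alternative, against -0.38 with untreated array 2, so its size also depends on the untreated array. The untreated array in 2i+LIF read 1.71 below untreated array 2 and 0.44 below untreated array 1 in LIF+serum for *Dmc1*, and 1.87 and 0.93 below them for *Mnd1*. The medians of the 2i+LIF arrays were also lower, at 5.14 and 5.16, against 5.26 to 5.33 in LIF+serum, and no source says whether the arrays of both media were normalised together. The paper took its LIF+serum arrays from an earlier data set, so medium cannot be told apart from that split. The median folds at 6 d in 2i+LIF were 1.31 for break, 1.21 for strand exchange and 1.12 for crossover genes, beside 1.01 over all genes.

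**Figure D4:**
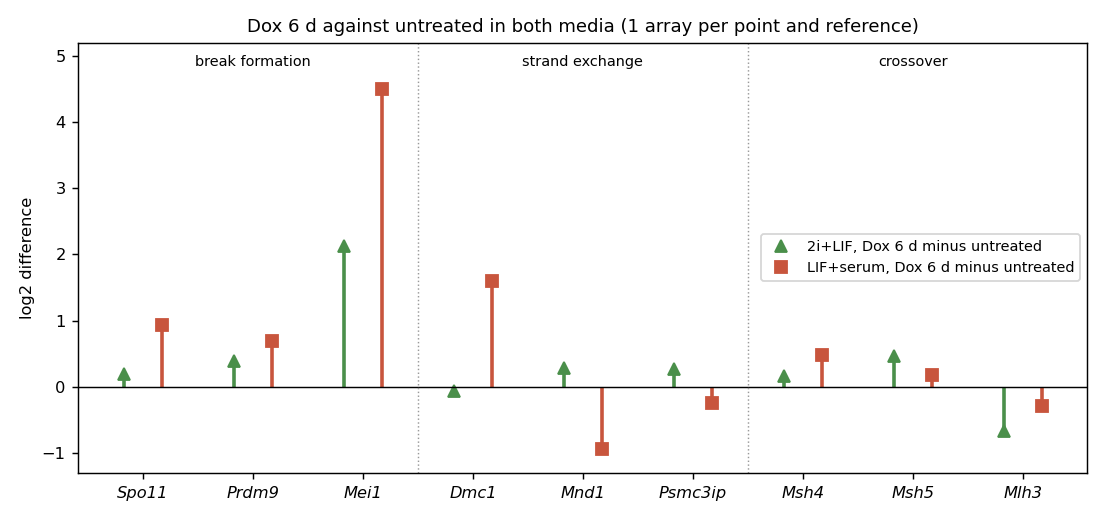
Log2 difference of Dox 6 d minus untreated (y axis) for each of the 9 measured genes in 2i+LIF (triangles) and in LIF+serum array set 2 (squares), 1 array against 1 array for each point, with no error bar because there are no replicates. *Mei1* is above 0 in both media, while *Dmc1* is at 1.6 in LIF+serum and at -0.06 in 2i+LIF.

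Other genes of the same 3 steps give the surroundings of these 9. Of a list of 44, 33 had a probe set, and 5 of them rose and 3 fell, with a median slope of 0.03 and 13 whose unadjusted p was under 0.05. Over the main probe sets of all 18193 genes 5.75% rose, 5.33% fell and 28.1% had an unadjusted p under 0.05, and the counts of each step below are to be read beside these shares. Among 6 other break genes 2 rose, *Hormad2*, an axis protein on unpaired chromosomes, with a slope of 0.31 (SE 0.051, adjusted p = 0.00785), and *Rec114*, a partner of the break machinery, with 0.17 (SE 0.041, adjusted p = 0.0354). *Hormad2* read 4.53 without Dox, 7.14 at 6 d and 6.70 at 8 d in array set 2. *Hormad1*, the related axis protein, read 9.63 at 4 d, against 3.82 without Dox, a 56.2-fold difference, but its slope of 0.62 (SE 0.18, adjusted p = 0.0561) did not pass, and untreated array 2 already read 6.20. Within each array set alone it passed, with a slope of 0.43 (adjusted p = 0.00675) in set 2 and 1.28 (adjusted p = 0.0389) in set 1, and it did so in 6 of 17 alternatives. *Ankrd31*, a partner of REC114, had a slope of 0.09 (adjusted p = 0.222).

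Among the 18 other strand exchange genes 2 rose and 1 fell, where 5.75% of all genes rose and 5.33% fell. *Tex15*, needed in mouse spermatocytes to load recombinases, had the largest slope of the list at 0.75 (SE 0.11, adjusted p = 0.00595), and read 4.29 without Dox and 6.25, 6.22, 7.88 and 9.50 at 1, 2, 3 and 4 d. *Meiob*, the partner of SPATA22, rose with a slope of 0.37 (SE 0.077, adjusted p = 0.0177). It read 2.86 without Dox and 2.86, 2.90, 3.01 and 4.78 at 1, 2, 3 and 4 d, and in array set 2 3.20 without Dox, 6.44 at 6 d and 5.73 at 8 d. *Rad52*, a single-strand annealing protein of mitotic cells too, fell with a slope of -0.14 (SE 0.035, adjusted p = 0.0327). *Mcm8*, a helicase subunit, and *Xrcc3*, a recombinase paralogue, had slopes of 0.15 (adjusted p = 0.0780) and -0.11 (adjusted p = 0.109).

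Of the 9 other crossover genes 1 rose and 2 fell, beside the same shares of 5.75% and 5.33%. *Tex11*, an X-linked crossover factor of spermatocytes, rose with a slope of 0.56 (SE 0.14, adjusted p = 0.0382), and its folds were 32.0 at 4 d, 9.35 at 6 d and 6.38 at 8 d. It read 8.59, 8.10 and 7.55 on these arrays, against 3.59 on untreated array 1 and 4.88 on untreated array 2. The lower folds at 6 and 8 d thus rest in part on the higher untreated array 2. The 2 that fell also act in mitotic cells: *Exo1*, an exonuclease, with a slope of -0.16 (SE 0.026, adjusted p = 0.00791), and *Eme1*, a subunit of the MUS81 nuclease, with -0.13 (SE 0.028, adjusted p = 0.0222). With the mean of all probe sets of each gene in the limma fit, the slope of *Exo1* was -0.09 and did not pass (adjusted p = 0.0523). *Gen1*, a resolvase, and *Cntd1*, a crossover factor, had slopes of 0.09 (adjusted p = 0.385) and 0.06 (adjusted p = 0.190). In 2i+LIF with 6 d of Dox the fold was 8.96 for *Hormad1*, 2.03 for *Tex15*, 1.13 for *Hormad2*, 0.958 for *Meiob*, 0.827 for *Tex11* and 0.650 for *Rec114*. Without untreated array 2, 0 of the 33 genes passed, and without the array at 1, 3, 4 or 6 d 3 of them rose. *Rec114*, *Tex11* and *Rad52* were the genes that lost their call most often, in 9, 7 and 10 of 17 alternatives.

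The genes whose levels ran most like 3 of these genes over the 8 LIF+serum arrays were looked for among 7779 genes that varied by at least 1 log2 unit. The arrays share 1 cell line and 2 untreated arrays, so the values of Pearson's r are a description. For *Mei1* these were *Limch1* (r = 0.995), *Spz1* (r = 0.994) and *Dynlt1f* (r = 0.990). For *Dmc1* they were *Hnrnpr* (r = 0.992), *Zmym4* (r = 0.982) and *Snrnp48* (r = 0.976), and for *Msh4* *Tmem127* (r = 0.984), *Slc39a9* (r = 0.984) and *Rnf181* (r = 0.982).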

How the data were processed

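Labelled cRNA made from total RNA was hybridised to 10 Affymetrix GeneChip mouse genome arrays. The authors computed RMA values (the submitters' processing notes name affy, with no version). The deposited series table holds log2 RMA values. Neither the arrays that were normalised together nor the genome build was given in the sources used here. Of 45101 probe sets 64 controls were left out. Of the 45037 kept, 34945 had 1 symbol in the platform annotation, 932 had several and 9160 were not listed. The main probe set of a gene was the one with the highest mean.

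Slopes per day of Dox with an array set term, and their difference between sets, were fitted to all probe sets in limma 3.58.1 (R 4.3.3) with Benjamini-Hochberg adjustment at 0.05, after the scripts were tested on simulated data. Other steps used Python 3.11.15. Folds against single arrays carry no test, and the number of arrays limits the precision.

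The genes, lists and tests were chosen with earlier results of these data known. Named were all members, other genes of the steps that passed (up to 6 a step) with the 2 largest slopes that did not, and the 3 genes most alike to the member with the largest slope a step. Alternatives changed the set term, the scale of days, the filter (a value of 6 reached), the normalisation, the eBayes settings, the probe set summary, the arrays and the untreated array.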

Additional observations from a re-analysis of the deposited data

Results flagged for a closer look

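For the main probe sets of *Dmc1* and *Psmc3ip*, the sign of the change with Dox was not the same in 2i+LIF as in LIF+serum. In 2i+LIF, *Dmc1* with 6 d of Dox was at a log2 difference of -0.0567 from the untreated array, whereas all 6 arrays with Dox in LIF+serum were above the untreated array of their set. For *Psmc3ip* the log2 difference in 2i+LIF was 0.276, whereas all 6 arrays with Dox in LIF+serum were below theirs. Both 2i+LIF values were smaller in size than 0.358, the median absolute log2 difference between the untreated LIF+serum arrays. An opposite response in 2i+LIF therefore cannot be read from them. Neither difference between the media was tested, since 2i+LIF has 1 array with Dox and 1 untreated array, and the 6 LIF+serum arrays share 2 untreated arrays. The second *Dmc1* probe set was at 1.07-fold in 2i+LIF, on the other side of 1 from the main probe set. With untreated array 2 as the reference, the main *Dmc1* probe set was below 1 at 1 to 4 d in LIF+serum (folds of 0.698 to 0.911). No group had 4 arrays, so no array was set against its group.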

How the results depend on the processing

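The trend of the 9 measured genes was recomputed under up to 17 alternatives each, 150 values in all: 133 kept direction and side of the threshold, 7 lost the call, 6 gained one and 4 changed sign. The calls lost were *Mei1* in 1 alternative and *Spo11* in 6. The number of the 9 that rose, 2, was 1 with log2(day + 1) in place of days, 1 with all 10 arrays and 1 in array set 1 only. It was also 1 with only probe sets that reach 6 on the log2 scale, which *Spo11*, *Prdm9* and *Msh4* never do. Leaving out 1 array gave 0 to 3 that rose (0 without untreated array 2) and 0 to 1 that fell. Of the 33 other recombination genes, 5 rose and 3 fell, but 1 and 0 with all 10 arrays, and 1 fell in array set 1 only and 1 in array set 2 only. Leaving out 1 array gave 0 to 8 that rose and 0 to 4 that fell.

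Slopes that changed sign were those of *Msh5* in array set 1 only (-0.0349), *Mlh3* in array set 1 only (0.154), without untreated array 2 (0.0850, with -0.0625 as the lowest value when 1 array was left out) and without 8 d (0.0240), and *Cntd1* as the mean of its probe sets (-0.00761). The difference in slope between sets changed sign only when an array was left out: *Prdm9* without either untreated array (range -0.0629 to 0.0569), *Mei1* without either untreated array (-0.487 to 0.211), *Mnd1* without 1, 3, 4 or 8 d (-0.0336 to 0.182), *Msh4* without 3 d or untreated array 2 (-0.0821 to 0.0333), and *Dmc1* without 8 d (-0.820 to 0.00554). It passed for none of the 9 genes in any of its alternatives.

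Against the untreated array of the other set, the log2 difference of *Dmc1* at 2, 3 and 4 d was -0.135, -0.163 and -0.147. Genes at least 2-fold higher then numbered 1 at 1 d, 2 at 2 d, 1 at 3 d and 1 at 4 d, and 1 was at least 2-fold lower at 3 d and 1 at 4 d. Against the mean of both untreated arrays 0 were at least 2-fold higher at 2 d, 1 at 3 d and 1 at 4 d. With untreated array 1 in place of 2 under LIF+serum at 6 d, an alternative chosen after seeing the data, the difference between media changed sign for *Spo11* (0.178) and for no other of the 9 genes. No paired analysis was possible because each time of Dox is 1 array and each untreated array is shared by the times of its array set.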
